A study of Ovis aries with 32 samples.

Results

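PTGS2, the gene of cyclooxygenase 2, was followed array by array in the middle cerebral artery (MCA) of sheep at 4 ages, untreated and after stimulation of alpha1-adrenergic receptors. Its members were all probes that name the gene by the transcript accession in the array files, by group means that the study printed, or by the gene name in the files. Of the 15008 probes on the array, 2 name PTGS2, and they are called the first probe (A_70_P039256) and the second probe (A_70_P039257) here. Both carry the same accession, have 1 spot each on every array, and stand in the files under PGHS-2, an older name of the gene.

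MCA segments cleaned of fat and connective tissue were left untreated or exposed to the alpha1-adrenergic agonist phenylephrine (PHE) at 10 µM for 30 minutes, and their RNA was hybridized in a single colour to 32 Agilent sheep arrays, with 4 arrays in each of 8 groups. The untreated and PHE-treated groups came from premature fetuses (96 days of gestation in the labels and in the methods), near-term fetuses (146 days in the labels, 140 days in the methods), newborn lambs (12 hours in the labels, 5 days in the methods) and non-pregnant adult sheep (2 years in the labels, 18 to 24 months in the methods). The methods do not say whether untreated segments spent the same time in the bath, nor whether an untreated and a PHE-treated segment that share a number came from 1 animal, so p-values measure differences against the spread between these samples. A segment holds several cell types, and fewer cells of a type cannot be told apart from less RNA per cell.

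Cyclooxygenases turn arachidonic acid, which phospholipases free from membranes, into prostaglandin H2, and terminal synthases make from it prostaglandins, prostacyclin and thromboxane, which act on their own receptors to relax or contract vessels. PTGS1 codes for the form that most cells make steadily, whereas PTGS2 is an immediate early gene whose short-lived mRNA is induced by cytokines, growth factors and calcium or cyclic AMP signals. In the cerebral circulation of the fetus and newborn, prostanoids are known as regulators of vessel tone and blood flow.

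Levels are log2 intensities relative to the array's own 75th percentile, so that 0 is that percentile and 1 unit is a doubling. A single limma model gave every group a mean and every probe 1 replicate spread over all 32 arrays. Testing a probe required a signal well above background on each of the 4 arrays in 1 or more of the groups set against each other, and the probe was called changed at a Benjamini-Hochberg adjusted p under 0.05, over all probes tested, with a fold of at least 1.5. With 4 arrays a group, the spread between them sets how exactly a level is known. The intensity at the 75th percentile ran from 639 to 1709 on the premature, newborn and adult arrays and from 124 to 1669 on the near-term arrays, where untreated replicate 4 (124) and PHE replicate 1 (369) were the dimmest.

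With PHE, PTGS2 rose at every age, from a level below the 75th percentile of the array to one above it. The first probe was well above background on all 32 arrays, and no PHE-treated array overlapped an untreated array of its age. The rise was 55.8-fold in premature, 45.0-fold in near-term, 34.3-fold in newborn and 19.8-fold in adult arteries.

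In the premature fetus, the log2 levels of PTGS2 on untreated replicates 1 to 4 were -1.12, -1.49, -1.85 and -1.38. With PHE they were 4.08, 4.43, 4.57 and 4.30. Both groups were tight, and the lowest PHE-treated array stood 5.20 above the highest untreated one. In the near-term fetus, the untreated replicates lay at -1.55, -1.37, -1.55 and -1.69, and the PHE-treated replicates lay at 4.05, 3.56, 3.87 and 4.31. The near-term groups were tight too, although the intensity behind them ran from 38.5 on untreated replicate 4 to 33129 on PHE replicate 4.

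In the newborn lamb, the untreated levels were -1.44, -1.95, -0.63 and -0.48. The PHE-treated levels were 3.68, 3.90, 4.12 and 4.20. Untreated newborn replicates 3 and 4 were the highest of all 16 untreated arrays, and replicate 2 lay among the adult values. In the adult sheep, the untreated levels were -1.97, -2.23, -2.09 and -1.91, and with PHE they were 2.82, 0.67, 2.02 and 3.51. The PHE-treated adult arrays were the most scattered group and held the lowest PHE-treated level of all, at replicate 2.

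**Figure D1:**
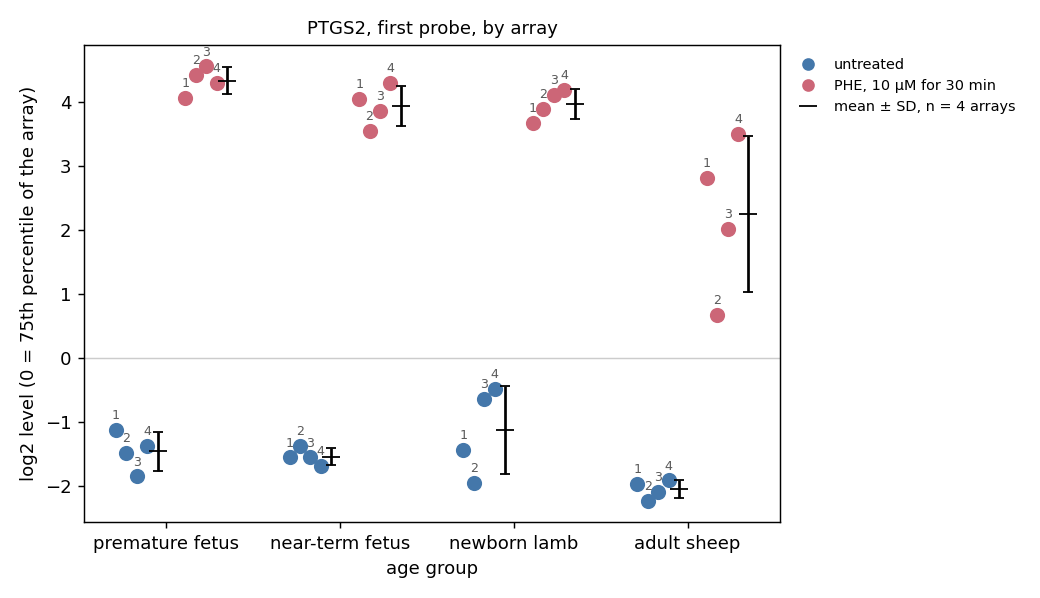
Log2 level of PTGS2 (first probe, relative to the array's 75th percentile) on each of 32 arrays, by age, untreated in blue and PHE-treated in red, with the replicate number over each point and the group mean ± SD (n = 4). Untreated arrays lie between -2.23 and -0.48 and PHE-treated arrays between 0.67 and 4.57.

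The limma estimate of the rise in the premature fetus was 5.80 on the log2 scale (SE 0.37, n = 4 and 4, adjusted p = 1.46e-11, 95% interval of the fold 32.8 to 94.9). Near-term, the rise was 5.49 (SE 0.37, adjusted p = 3.51e-11 with limma, fold interval 26.4 to 76.5). The newborn value was 5.10 (SE 0.37, adjusted p = 5.86e-10 with limma, fold interval 20.2 to 58.3). The adult value was 4.31 (SE 0.37, adjusted p = 3.47e-09 with limma, fold interval 11.6 to 33.6). In an exact permutation test, two-sided, each age gave p = 0.0286, the smallest that 70 arrangements of 4 against 4 arrays can give.

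For comparison, PHE raised 9.10% of all probes tested in the premature fetus and lowered 8.48%. In the near-term fetus the shares were 17.7% higher and 18.2% lower, in the newborn lamb 5.91% higher and 5.18% lower, and in the adult sheep 3.01% higher and 0.835% lower. These shares depend on the test: the counts behind them, 1787, 3559, 1086 and 368 probes from premature to adult, became 3024, 130, 1889 and 161 with only the arrays compared, and the near-term and adult counts 18 and 9 with the methods' t-test after adjustment. PTGS2 was called higher at all 4 ages. Among the alternatives run, the adult call was lost only with the methods' t-test after adjustment (adjusted p = 0.26).

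Arrays that share a replicate number across treatments deviated from their group means together in the premature fetus and the newborn lamb. Within those pairs, PTGS2 rose by 5.20 to 6.42 log2 units in the premature fetus and by 4.67 to 5.85 in newborn lambs.

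Untreated levels were ordered newborn lamb, premature fetus, near-term fetus and adult sheep, with means of -1.13 ± 0.69, -1.46 ± 0.30, -1.54 ± 0.13 and -2.05 ± 0.14 (SD, n = 4). The order of the 3 younger ages was not stable: with normexp background correction near-term minus premature turned to 0.61 and newborn minus near-term to -0.46, neither of them called. The adult arrays were the lowest group, below every array of either fetal age, and they overlapped the newborn arrays at newborn replicate 2. No pair of neighbours in this order was called different in the limma fit to all arrays: premature and newborn differed by 0.33 (newborn minus premature, adjusted p = 0.653), near-term and premature by -0.08 (near-term minus premature, 0.872), and adult and near-term by -0.51 (adult minus near-term, 0.269). The adult and near-term groups did not overlap, and their difference passed the methods' t-test after adjustment but was under 1.5-fold. It was called with normexp background correction (-1.26, 0.00528), and was -0.09 with quantile normalization and 0.03 with median scaling. Newborn minus near-term was 0.42 (adjusted p = 0.362 with limma) and adult minus premature was -0.59 (0.174). The latter was called with only the arrays compared (0.0218) and with the methods' t-test before and after adjustment (0.0384 adjusted). Its size was not stable either, at -0.64 to -0.02 over the alternatives other than leaving out 1 array.

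The largest baseline difference in this fit, 0.93 lower in the adult sheep than in the newborn lamb (log2 difference -0.93, SE 0.37, 95% interval -1.69 to -0.16, a 1.90-fold lower level), passed the limma test at an adjusted p of 0.0369. It was no longer called without newborn untreated replicate 3 (-0.76, adjusted p = 0.116) or 4 (-0.71, 0.134), nor without any one of the 4 untreated adult arrays (adjusted p of 0.0548, 0.0805, 0.0629 and 0.0502 in replicate order). The call was also lost with median scaling (-0.32), quantile normalization (-0.56), normexp (-0.80) and the methods' t-test. Between untreated arteries, 42.4% of all probes tested were called for near-term against premature, 11.0% for newborn against premature, 56.4% for adult against premature, 46.5% for newborn against near-term, 43.4% for adult against near-term and 52.2% for adult against newborn.

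With PHE, the means stood at 4.34 ± 0.21 in premature, 3.97 ± 0.23 in newborn, 3.95 ± 0.32 in near-term and 2.25 ± 1.22 in adult arteries (SD, n = 4). No difference among the 3 younger ages was called. Near-term minus premature was -0.39 (adjusted p = 0.393 with limma), newborn minus premature was -0.37 (0.602) and newborn minus near-term was 0.03 (0.96). With normexp the first turned to 0.06 and the last to -0.35, not called either.

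The adult level with PHE was lower than that of each younger age. It fell short of the premature level 4.25-fold (log2 difference -2.09, SE 0.37, adjusted p = 2.85e-05 with limma). Against the newborn lamb it was 3.30-fold lower (-1.72, adjusted p = 0.000309), and against the near-term fetus 3.24-fold lower (-1.69, adjusted p = 0.000718). All 4 adult arrays lay below the lowest of the 12 PHE-treated arrays of the younger ages, near-term replicate 2 at 3.56, with adult replicate 4 just under it at 3.51. Among all probes tested with PHE, 44.8% were called for near-term against premature, 10.5% for newborn against premature, 58.5% for adult against premature, 49.3% for newborn against near-term, 37.2% for adult against near-term and 56.4% for adult against newborn. With the methods' t-test after adjustment, none of these 3 adult differences was called (adjusted p of 0.06 against premature, 0.18 against near-term and 0.0934 against newborn arteries). Without adjustment that test did not call the differences from near-term and newborn arteries either, and the near-term one was also lost with only the arrays compared (adjusted p = 0.0781).

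Whether the response itself changes with age is asked by the difference between the PHE effects of any pair of ages, and none of these 6 differences was called for the first probe. The adult rise was the smaller one beside the premature rise (log2 difference -1.50, SE 0.53, 95% interval -2.58 to -0.41, adjusted p = 0.217 with limma). Against the near-term fetus the adult difference was -1.18 (interval -2.27 to -0.10, adjusted p = 0.147), and against the newborn lamb it was -0.79 (interval -1.88 to 0.29, adjusted p = 1). Adult minus newborn ran from -1.21 to -0.27 with 1 array left out and from -1.49 to -0.63 over the other alternatives, always without a call. Newborn minus premature was -0.70 (adjusted p = 1), newborn minus near-term was -0.39 (0.682) and near-term minus premature was -0.31 (0.791). The direction of newborn minus near-term was not stable, at -0.54 to 0.10 over the alternatives other than leaving out 1 array.

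The share of all probes called for such a difference was 4.48% for near-term minus premature, 0.00968% for newborn minus premature, 0.847% for adult minus premature, 10.7% for newborn minus near-term, 10.6% for adult minus near-term and 0.0961% for adult minus newborn. A single array decides the adult estimate in part: without adult PHE replicate 4, adult minus premature became -1.91 (adjusted p = 0.0436) and adult minus near-term -1.60 (0.0384), and both were called. Without adult PHE replicate 2 they moved the other way, to -0.97 and -0.66, and neither was called. Both were also called after quantile normalization (-2.25, adjusted p = 0.0324, and -1.72, 0.0424), and adult minus premature with array weights (-1.70, 0.0154). The alternatives other than leaving out 1 array gave -2.25 to -1.09 for adult minus premature and -1.72 to -0.53 for adult minus near-term.

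**Figure D2:**
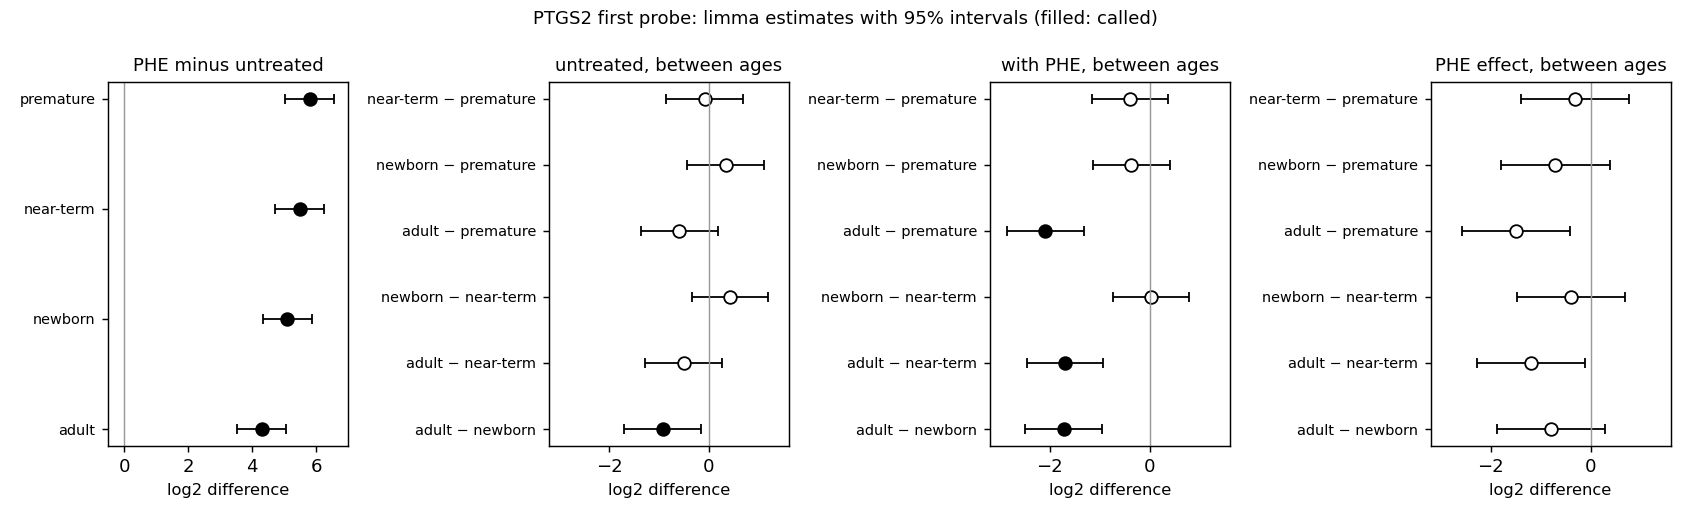
Limma estimates for PTGS2 (first probe) with 95% intervals on the log2 scale: the PHE effect at each age, its difference between ages, and the difference between ages of untreated and of PHE-treated arteries. The intervals of the 4 PHE effects lie between 3.54 and 6.57, and the differences that were called all involve the adult sheep.

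The arrays sat on 5 slides scanned on 2 days. The premature arrays filled slide 5 and the newborn arrays slide 4, both of scan 1, so that the PHE effects of these ages are differences within a slide, while these ages cannot be told apart from their slides. Near-term and adult arrays lay on slides 1 to 3 of scan 2 and shared slides 2 and 3, and age cannot be told apart from scan day between these 2 ages and the other 2. Within slide 3, the 4 PHE-treated adult arrays averaged 4.35 above the 2 untreated ones (20.4-fold), and within slide 1, the 4 PHE-treated near-term arrays averaged 5.64 above the single untreated one (49.8-fold).

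With slide as a block, the limma rise was 5.64 near-term (adjusted p = 1.2e-06) and 4.32 in adult arteries (2.23e-07). Untreated adult minus near-term was -0.64 within slide 3, -0.45 within slide 2 and -0.56 with slide as a block (adjusted p = 0.297 with limma). No slide held PHE-treated arrays of both near-term fetus and adult sheep. For those, the blocked difference, which rests on the untreated arrays that link the slides, was -1.88 (adjusted p = 0.0981 with limma) and was not called.

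The second probe was dim throughout and rose with PHE in the premature fetus and the newborn lamb. A dim probe has a bound in place of a fold: the mean of the bright group is set against the mean of the dim group, in which each array takes the higher of its own value and the lowest signal well above background on that array. In the premature fetus the second probe was not well above background on any untreated array, and with PHE it was on all 4, at -4.03, -2.86, -2.74 and -2.69. The newborn lamb had none of 4 untreated arrays above background and all 4 PHE-treated ones, at -3.28, -3.06, -2.38 and -2.17. By this bound, the second probe was at least 4.09-fold higher with PHE in the premature fetus and at least 4.16-fold higher in the newborn lamb. The fitted log2 differences were 3.98 (adjusted p = 0.000184 with limma) and 4.09 (adjusted p = 0.000217). Here and below, an adjusted p beside a bound belongs to the fitted difference, and the bound itself was not tested.

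Near-term, the second probe was well above background on untreated replicates 2 and 4, at -4.56 and -2.63, and with PHE on replicate 4 alone, at -2.65. In the adult sheep it was not well above background on any of 8 arrays. It was therefore not tested for a PHE effect at these ages, where the first probe rose. With PHE it was thus well above background on 4 premature, 4 newborn, 1 near-term and 0 adult arrays. Since most near-term and all adult arrays were at background, differences between ages of the second probe have no exact size. Both premature and newborn calls of the second probe were lost with normexp background correction, at 0.40 (adjusted p = 0.67) and 1.64 (0.085).

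**Figure D3:**
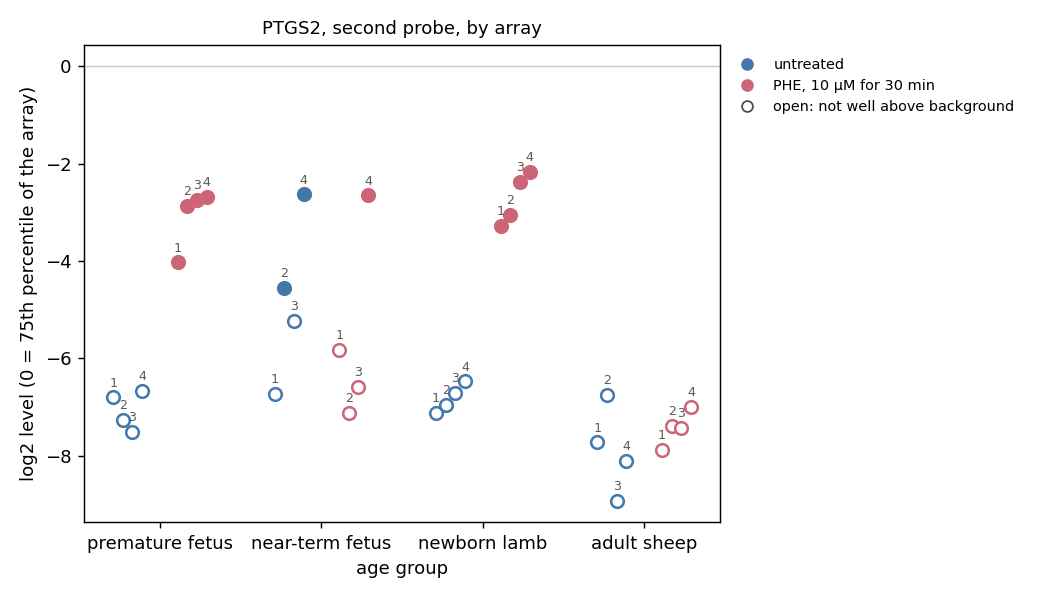
Log2 level of the dim second PTGS2 probe (relative to the array's 75th percentile) on each of 32 arrays by age and treatment, with open points where the spot was not well above background and the replicate number over each point. PHE-treated premature and newborn arrays lie between -4.03 and -2.17, and no adult array rises above background.

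PTGS1, the gene of the steadily made cyclooxygenase, did not share the rise of PTGS2. Its levels on untreated premature replicates 1 to 4 were 1.95, 2.07, 1.94 and 1.67, and with PHE they were 0.99, 1.21, 1.09 and 0.77. In the newborn lamb the untreated levels were 1.07, 0.77, 1.39 and 0.94, and the PHE-treated ones 0.46, 0.24, 0.16 and 0.31. At both ages every PHE-treated array lay below every untreated one. The near-term fetus had 1.28, 1.88, 2.08 and 1.64 untreated and 2.30, 0.83, -0.24 and 1.00 with PHE, and the adult sheep had -3.04, -2.43, -1.04 and -2.83 untreated and -2.14, -3.66, -2.51 and -0.34 with PHE. These groups overlapped, and PTGS1 was far lower in the adult sheep than at the younger ages.

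None of the PHE differences of PTGS1 was called in the limma fit to all arrays. The log2 differences were -0.89 in premature (SE 0.49, adjusted p = 0.222), -0.75 in near-term (0.232), -0.75 in newborn (0.396) and 0.17 in adult arteries (0.961). In a limma fit to only the 8 arrays of an age, the premature (adjusted p = 0.00125) and newborn (0.01) differences were called, and so they were with array weights (0.00763 and 0.04) and with the methods' t-test before and after adjustment (0.00457 and 0.037 adjusted). With the replicate number as a block they were not called (0.275 and 0.44). The near-term difference was called without near-term PHE replicate 1 (-1.19, adjusted p = 0.0468).

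The PTGS1 baseline differed with age. Untreated adult arteries held 18.9-fold less PTGS1 signal than premature ones (log2 difference -4.24, adjusted p = 4.53e-08 with limma), 16.6-fold less than near-term ones (-4.05, adjusted p = 3.04e-07) and 10.4-fold less than newborn ones (-3.38, adjusted p = 2.37e-06). No difference among the 3 younger ages was called (adjusted p of 0.773, 0.291 and 0.256 with limma), although newborn minus premature (-0.87) was called in the fit to only the arrays compared (adjusted p = 0.00557). Slide cannot be told apart from age here either, except between near-term and adult arrays. Scan day was shared by premature and newborn arrays and by near-term and adult arrays, but cannot be told apart from age between these pairs.

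**Figure D4:**
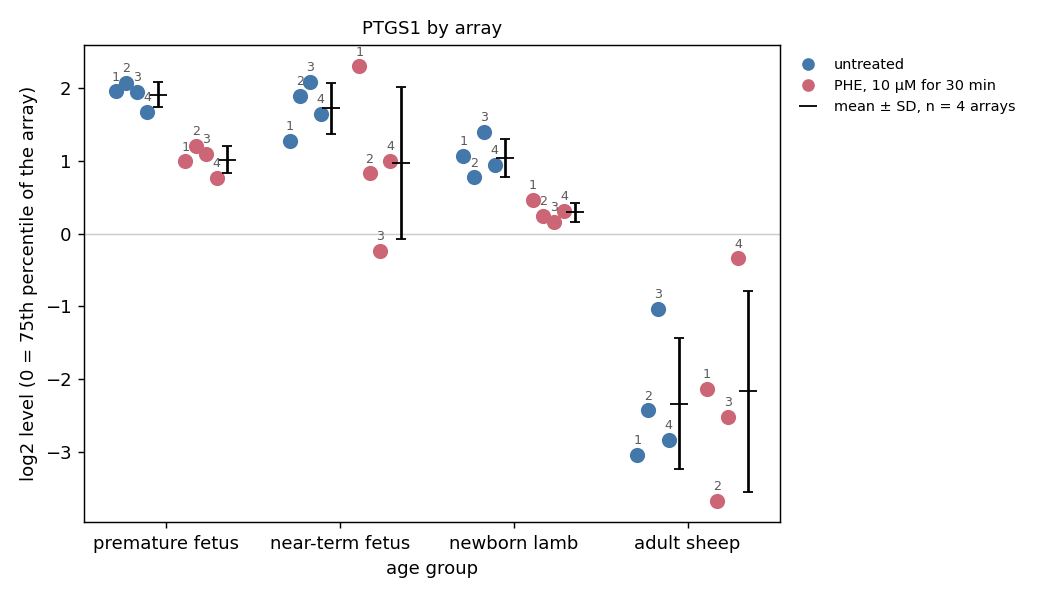
Log2 level of PTGS1 (relative to the array's 75th percentile) on each of 32 arrays by age, untreated in blue and PHE-treated in red, with the replicate number and the group mean ± SD (n = 4). PHE-treated premature and newborn arrays all lie below their untreated ones, near-term and adult groups overlap, and the 8 adult arrays lie between -3.66 and -0.34.

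Of 45 genes listed for the prostanoid pathway, 10 were named on the array, 8 of them without the help of printed group means. Besides PTGS1 these were MGLL, a lipase that frees fatty acids such as arachidonic acid from monoglycerides, PTGDS, a prostaglandin D2 synthase, the prostaglandin E2 receptors PTGER1 to PTGER4, the prostaglandin F receptor PTGFR, SLCO2A1, a transporter that takes up prostaglandins, and ALOX5AP, which assists 5-lipoxygenase in leukotriene synthesis. With PHE, limma called 0 of 5 tested in premature, 1 of 5 in near-term (MGLL, higher), 0 of 5 in newborn and 0 of 4 in adult arteries. Of all probes tested, 9.10%, 17.7%, 5.91% and 3.01% were called higher and 8.48%, 18.2%, 5.18% and 0.835% lower, from premature to adult. With only 4 or 5 genes tested, 0 or 1 call cannot be set apart from these shares. At an unadjusted p under 0.05 the counts of prostanoid genes were the same. The methods' t-test added PTGS1 in the premature fetus and the newborn lamb. The median log2 difference of those tested was -0.36, -0.19, -0.26 and 0.31 in this order of ages, beside -0.09, -0.08, -0.08 and -0.04 over all probes tested.

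MGLL was well above background on 17 of 32 arrays. Near-term, it was well above background on 1 of 4 untreated arrays and on all 4 with PHE, at -4.30, -2.44, -1.73 and -2.42. Its rise was at least 2.29-fold (fitted log2 difference 2.88, adjusted p = 0.000142 with limma). The call was lost with only the arrays compared (adjusted p = 0.0965) and with the methods' t-test after adjustment (0.151), and the direction turned with normexp background correction (-0.51). All 8 adult arrays had MGLL well above background, between -4.76 and -1.93 untreated and between -3.15 and -2.27 with PHE, with no call (log2 difference 0.50, adjusted p = 0.8).

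PTGDS was bright on all 32 arrays, between 5.33 and 8.27, and its PHE differences of -0.29, -0.19, -0.08 and 0.11 from premature to adult were not called. PTGER3 was well above background on 3 of 4 untreated arrays at the 3 younger ages. Its fitted differences were 0.61, 0.69 and 0.43 there and 0.44 in the adult sheep, none of them called. With dim untreated arrays at their bound, those of the 3 younger ages became 0.54, 0.68 and 0.37. The fitted difference turned direction among the alternatives, with lowest values of -0.30 in premature and -0.73 in near-term arteries, not called either. The other PTGER3 probe was called near-term alone (adjusted p = 0.0485 with limma), where 3 of 4 untreated arrays were well above background. PTGER4 was well above background on none of 4 untreated premature arrays and on 3 PHE-treated ones, at -4.54, -4.50 and -4.41, and in the newborn lamb on none of 4 and on 2 of 4. Near-term it was on 2 untreated and 3 PHE-treated arrays, and in the adult sheep on none, so that it was tested at no age. PTGER1 and PTGER2 were not well above background on most arrays. SLCO2A1 and ALOX5AP gave no call where they were tested, except that SLCO2A1 was called lower near-term with normexp background correction (-1.58, adjusted p = 0.00405).

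Many genes known to act on PTGS2 were higher with PHE, and others were not called. Of 45 listed regulators (transcription factors of its promoter, proteins that set the stability of its mRNA, inducers and repressors), 31 were named on the array. With PHE, 24 of 29 tested were higher in premature, 25 of 29 in near-term, 17 of 29 in newborn and 14 of 26 in adult arteries, and 0 were lower at any age by limma, also at an unadjusted p under 0.05 (the methods' t-test was counted over both directions together). Of all probes tested, 9.10%, 17.7%, 5.91% and 3.01% were called higher from premature to adult. The near-term count of regulators became 14 with a stricter filter on dim probes and 13 with only the arrays compared. It became 3 with the methods' t-test after adjustment, which left 1 regulator in the adult sheep. The median log2 difference of the regulators tested was 2.85, 2.78, 1.66 and 1.86, and 2.85, 2.11, 1.66 and 1.86 with dim groups at their bound. Over all probes tested it was -0.09, -0.08, -0.08 and -0.04.

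Of the 31 names, 20 came only from matching printed group means of genes that the study lists as altered, which favours genes that moved. Among the 11 other names, 9 of 10 tested were higher in premature, 9 of 10 in near-term, 8 of 10 in newborn and 6 of 7 in adult arteries. The shares of all probes given above apply to these counts and to those by role. By role, the promoter's transcription factors had 16 of 18, 15 of 17, 12 of 18 and 10 of 17 higher, the mRNA stability proteins 2 of 4, 5 of 5, 1 of 4 and 2 of 5, the inducers 3 of 3, 3 of 3, 3 of 3 and 1 of 1, and the repressors 3 of 4, 2 of 4, 1 of 4 and 1 of 3.

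CREM, a cyclic AMP response factor that also has repressor forms, rose at each age in the limma fit. Its untreated levels were -2.04, -2.34, -2.26 and -2.11 in the premature fetus, and with PHE they were 4.37, 4.79, 4.65 and 4.76. The adult levels were -3.29, -2.68, -2.67 and -3.47 untreated and 4.48, 1.09, 3.29 and 3.77 with PHE. Adult PHE replicate 2, the lowest of its group for PTGS2, was the lowest here as well. The rise of CREM was 114-fold in premature (log2 6.83, SE 0.55, adjusted p = 1.02e-09 with limma), 25.8-fold in near-term, 71.8-fold in newborn and 72.8-fold in adult arteries (log2 6.19, adjusted p = 6.71e-09). The near-term and adult calls were lost with the methods' t-test after adjustment (0.155 and 0.212).

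CEBPD and CEBPB, C/EBP factors that bind the PTGS2 promoter, rose at each age. CEBPD rose 47.0-fold, 21.8-fold, 8.20-fold and 13.6-fold from premature to adult, and CEBPB at least 86.7-fold, at least 38.4-fold, 7.28-fold and 8.28-fold. ATF3, a stress-induced factor of the CREB family, rose 77.6-fold in premature, at least 322-fold in near-term, 7.74-fold in newborn and 33.0-fold in adult arteries. With the methods' t-test after adjustment, the near-term and adult calls of CEBPB (adjusted p of 0.0877 and 0.277) and ATF3 (0.0742 and 0.183) and the adult call of CEBPD (0.0796) were lost. ATF4, its relative in the amino acid and unfolded protein response, rose less, from 3.65-fold in the premature fetus to 1.64-fold in the adult sheep (adjusted p = 0.00839 with limma), and the adult value was not called with normexp, quantile normalization, median scaling, only the arrays compared, the methods' t-test after adjustment or without adult PHE replicate 1 (0.61, adjusted p = 0.0594).

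The AP-1 members JUNB and FOSL2 rose too, JUNB 60.2-fold, 65.6-fold, 16.4-fold and 26.3-fold and FOSL2 7.23-fold, 4.32-fold, 3.17-fold and 3.54-fold. The adult FOSL2 call was lost with only the arrays compared (adjusted p = 0.139). EGR1, an immediate early zinc finger factor, rose 15.1-fold in premature, 71.1-fold in near-term, 3.40-fold in newborn and 46.8-fold in adult arteries. ZFP36, which binds AU-rich elements and speeds the decay of mRNAs such as that of PTGS2, rose 8.90-fold, 23.7-fold, 3.41-fold and 14.9-fold. For PTGS2 and ATF4 the largest fold was in the premature fetus, whereas for EGR1 and ZFP36 it was in the near-term fetus. With the methods' t-test after adjustment, the calls of JUNB (adjusted p of 0.0562 and 0.0815) and FOSL2 (0.11 and 0.4) were lost in near-term and adult arteries, those of EGR1 in newborn and adult arteries (0.0685 and 0.0743) and that of ZFP36 near-term (0.0703). Differences between ages were not tested for these regulators.

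The interleukin 1 genes, inducers of PTGS2, rose where they could be tested. IL1B was well above background on replicates 2 and 3 of the untreated premature arrays, at -4.94 and -4.77, and on all PHE-treated ones, at 3.85, 4.45, 4.00 and 3.11. Its rise was at least 414-fold there, 11.5-fold near-term, at least 151-fold in newborn and 10.9-fold in adult arteries (adjusted p = 0.00205 with limma). The near-term IL1B call was lost with the slide block (2.34, adjusted p = 0.103) and the methods' t-test after adjustment (0.122), and the adult call with only the arrays compared (0.176) and with the methods' t-test before and after adjustment (0.467 adjusted). IL1A was below background on every untreated premature and newborn array and rose at least 95.1-fold and at least 12.4-fold. Near-term it rose at least 3.47-fold, with 1 of 4 untreated arrays above background, and this direction turned with normexp background correction and the call was lost with the slide block (1.63, adjusted p = 0.201), only the arrays compared (0.109) and the methods' t-test after adjustment (0.167). In the adult sheep IL1A was above background on 1 PHE-treated array and was not tested.

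**Figure D5:**
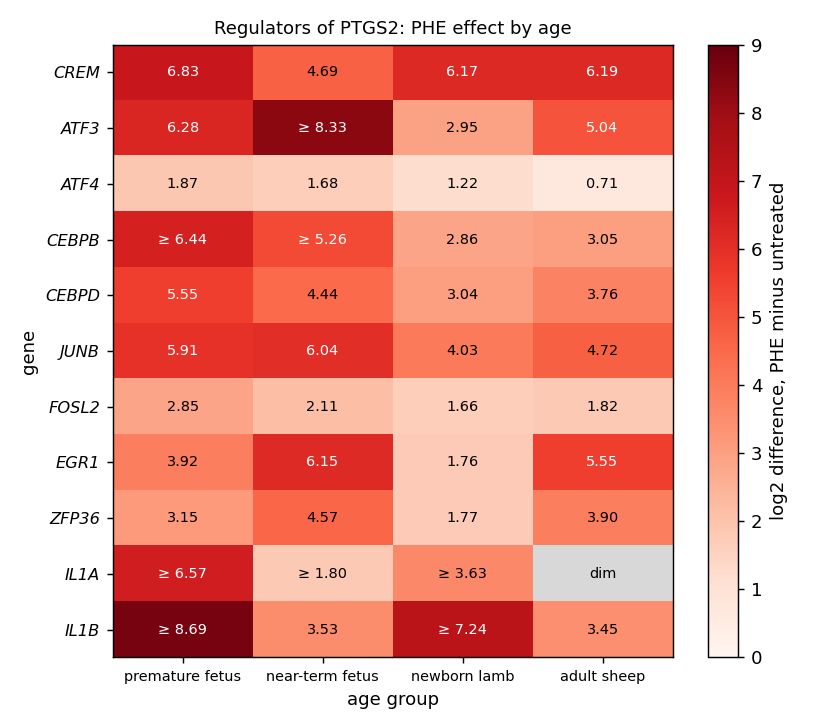
Log2 PHE effect (PHE minus untreated) for the regulators of PTGS2 that were called at all 4 ages or had one of the 3 largest changes, by age. A value with ≥ is a bound, since some untreated arrays were not well above background, and dim marks a gene that was not tested at that age. Every value shown was called, and IL1B in the premature fetus has the highest, at least 8.69.

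The probes whose levels were most like those of PTGS2 over the 32 arrays, among 2416 named ones, belonged to 6 genes. Pearson's r with the first PTGS2 probe was 0.976 for IL6, an inflammatory cytokine, 0.969 and 0.964 for the 2 probes of the growth regulator MYC, 0.958 for TIFA, an adaptor of NF-kB signalling, 0.957 and 0.951 for the 2 probes of the neutrophil chemokine CXCL8, 0.954 for the cell cycle inhibitor CDKN1A and 0.95 for the glucose transporter gene SLC2A3. These values mostly follow the step from untreated to PHE-treated arrays. The genes were chosen by this likeness on the same arrays, so a rise with PHE follows largely from the choice. Their folds, p-values and calls below describe them and are no separate evidence of a shared response. Within the 8 groups, where each array was taken as its deviation from the group mean, r was 0.603 for IL6, 0.628 and 0.613 for MYC, 0.659 for TIFA, 0.653 and 0.682 for CXCL8, 0.621 for CDKN1A and 0.457 for SLC2A3. The PHE-treated adult arrays, the most scattered group for PTGS2, weigh most in these within-group values.

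IL6 was well above background on 1 of 16 untreated arrays, near-term replicate 2 at -4.82. With PHE it stood at 4.71, 5.68, 4.98 and 4.73 in the premature fetus. The adult levels were 1.67, -1.76, 1.26 and 2.92 with PHE. As for PTGS2, the adult group was the most scattered, with replicate 2 lowest and replicate 4 highest. IL6 rose at least 1123-fold in premature, at least 85.8-fold in near-term, at least 363-fold in newborn and at least 140-fold in adult arteries. The fitted adult log2 difference was 8.65 (adjusted p = 9.77e-10 with limma). MYC (probe of the higher r) rose 20.1-fold, 16.6-fold, 17.4-fold and 26.7-fold from premature to adult, and SLC2A3 8.77-fold, 6.87-fold, 6.63-fold and 8.45-fold. CDKN1A rose 78.4-fold, 69.1-fold, 33.7-fold and 27.7-fold, with its smallest fold in the adult sheep as for PTGS2. The fitted rise of both CXCL8 probes was also smallest there (log2 5.77 and 5.39), where not all untreated arrays were well above background. The MYC probe of the higher r had its smallest fold near-term. The other MYC probe (16.6-fold), TIFA (7.74-fold) and SLC2A3 had theirs in the newborn lamb. With the methods' t-test after adjustment, the near-term and adult calls of IL6 (adjusted p of 0.0706 and 0.178), CDKN1A (0.122 and 0.22) and SLC2A3 (0.112 and 0.115) and the adult call of MYC (0.0953) were lost. So were the near-term and adult calls of TIFA (0.113 and 0.391) and of CXCL8 (probe of the higher r, 0.11 and 0.386). Differences between ages were not tested for these genes.

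Marker genes of 8 cell types were read beside PTGS2, with 20 of 48 named on the array. CNN1, the smooth muscle calponin and 1 of 2 smooth muscle markers measured, was bright in every group, and the summed smooth muscle level differed between ages, with means, untreated and with PHE, of 34.7 and 28.9 times the 75th percentile in premature, 127 and 109 in newborn, 262 and 167 in near-term and 423 and 439 in adult arteries. The fibroblast sum had means of 92.7 and 79.6 in premature, 39.3 and 75.6 in near-term, 34.2 and 56.8 in newborn and 11.1 and 11.2 in adult arteries, so that the adult sheep, with the lowest levels of PTGS2 and PTGS1, had the highest smooth muscle and the lowest fibroblast sums. Differences of these sums between ages were not tested. CNN1 was the brighter of the 2 smooth muscle markers, so the smooth muscle sum is weighted to it. The other, CALD1, was not well above background on all 4 arrays near-term, nor with PHE in the adult sheep. The order of ages was not read for CALD1 alone. Of 8 leukocyte markers 4 were measured, with CD14 the most abundant. Their summed level, in multiples of the 75th percentile, was 1.94 to 2.20 on untreated and 3.12 to 5.48 on PHE-treated premature arrays, 1.20 to 4.79 and 0.870 to 2.63 near-term, 0.986 to 5.47 and 3.96 to 6.44 in the newborn lamb, and 0.360 to 0.902 and 0.561 to 2.10 in the adult sheep. The macrophage marker CD68 was called higher with PHE in near-term (log2 difference 0.99), newborn (1.45) and adult arteries (1.24). CD68 was not called in the premature fetus (adjusted p = 0.0683 with limma). CD14 was not called at any age, with differences of 0.98 in premature, -1.03 in near-term, 1.06 in newborn and 1.21 in adult arteries. Near-term, CD14 and CD3E (-1.34), a T cell marker that was not called either, were in the direction opposite to CD68.

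In the adult sheep the leukocyte sum on PHE replicates 1 to 4 was 1.65, 0.561, 1.21 and 2.10. The fibroblast sum was 7.70, 5.78, 8.01 and 23.5, and both sums were lowest and highest on the same arrays as PTGS2. Other sums matched PTGS2 in part: the smooth muscle and endothelial sums were also highest on replicate 4, and the fat sum was lowest on replicate 2. The blood sum matched at neither end. The part of these sums in the adult levels of PTGS2 was not tested. The haemoglobin gene HBA1, a marker of blood, was called lower with PHE in the premature fetus (log2 difference -1.96) and the near-term fetus (-2.38). HBA1 was also lower, without a call, in newborn (-1.01) and adult arteries (-0.75). HBB, the other blood marker measured, was not called at any age where it was tested. The collagen genes COL1A2, COL1A1 and COL3A1 were higher near-term (4.23, 4.22 and 3.67), and COL1A2 was also higher in the premature fetus (1.89). DCN, the most abundant fibroblast marker, was not called, at -0.31 near-term and -0.47 in the premature fetus. TIE1, an endothelial receptor and the more abundant of 2 endothelial markers measured of 7, was called higher near-term, where not all untreated arrays were well above background. KDR, the other endothelial marker measured, was too dim to be tested at any age and had a fitted near-term difference of -1.54. The near-term endothelial sum ran from 0.0413 to 0.566 untreated and from 0.0767 to 0.526 with PHE. Fibroblasts had 4 of 6 markers measured, and blood 2 of 6. No fat marker was called, with 3 of 4 measured and FABP4 the most abundant, and no platelet marker was named. The part of these markers in the PTGS2 result was not tested.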

How the data were processed

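The authors hybridized Cy3-labelled RNA to Agilent arrays, and the deposited files hold processed signal intensities from Feature Extraction 9.5.3.1 (15744 spots, 536 of them controls, 15008 probes). Each intensity was divided by the array's 75th percentile over non-control spots and taken to log2, spots marked as outliers were set missing and repeated spots were averaged. All 32 arrays entered 1 limma 3.58.1 fit (R 4.3.3) of 8 group means, with two-sided tests. The remaining steps ran in Python 3.11.15 (scipy 1.17.1, pandas 2.3.3, matplotlib 3.10.9, numpy 2.4.6). Sheep gene names came from RefSeq (520 probes by accession, 496 by the name in the files, 1817 only by group means matched to a printed table within 0.1%, 12175 unnamed). Named genes were every PTGS2 probe, every measured prostanoid gene, regulators called at 4 ages or among the 3 largest differences, the 8 named probes most like PTGS2, and called markers. One marker result is not reported here. Members and lists were chosen with earlier results of these data known. Replicate numbers were checked for pairing by correlating deviations from group means, with r from 0.398 to 0.511 in premature and 0.483 to 0.559 in newborn arteries, and from -0.116 to 0.507 in near-term and -0.109 to 0.034 in adult arteries. The dimmest array, near-term untreated replicate 4, had a 75th percentile 1.41 times background. Alternatives were other background corrections, scalings, filters and tests, slide and replicate blocks, and leaving out arrays.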

Additional observations from a re-analysis of the deposited data

Results flagged for a closer look

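Among 175 groups of 4 arrays examined, 12 held an array far from the other 3, where chance gives about 1 in 20. The second PTGS2 probe had -4.03 on premature PHE replicate 1, with the other 3 between -2.86 and -2.69. No array of the first PTGS2 probe stood apart in this way.

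SLCO2A1, a prostaglandin transporter, had -1.82 on premature untreated replicate 2 (others -3.13 to -2.96). EGR1 had -2.89 on premature untreated replicate 3 (others -2.84 to -2.83) and 2.02 on adult PHE replicate 4 (others 3.54 to 3.73). IL6 had 3.40 on newborn PHE replicate 1 (others 3.80 to 3.89).

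The first MYC probe (A_70_P030411) had 3.32 on premature PHE replicate 1 (others 3.90 to 3.95) and -1.47 on adult untreated replicate 3 (others -2.95 to -2.71). The other MYC probe (A_70_P030412) had 4.37 on newborn PHE replicate 4 (others 3.85 to 3.92) and -0.22 on adult untreated replicate 3 (others -1.42 to -1.30). CDKN1A had 4.95 on newborn PHE replicate 4 (others 3.72 to 3.80) and 1.06 on adult PHE replicate 2 (others 4.01 to 4.18), and SLC2A3 had 0.50 on premature untreated replicate 2 (others 1.26 to 1.36).

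The fitted PHE effect of the second PTGS2 probe differed between near-term and premature arteries (-4.74, adjusted p = 0.00921 with limma) and between newborn and near-term arteries (4.85, adjusted p = 0.00358). The untreated premature and newborn arrays and 5 of 8 near-term arrays were not well above background, so these values measure no exact difference. Both calls were lost with only the arrays compared (adjusted p of 0.114 and 0.0656), and the first also with normexp (0.115).

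The fitted PHE effect of MGLL, also not well above background on 15 of 32 arrays, differed for near-term minus premature (2.75, adjusted p = 0.0331 with limma), newborn minus near-term (-3.15, 0.00795) and adult minus near-term (-2.38, 0.0374). With the slide block none was called (adjusted p of 0.137, 0.0676 and 0.339), nor with normexp. The first and the last were also lost with only the arrays compared (0.131 and 0.281). Near-term minus premature ran from 2.37 to 3.27 with 1 array left out. It was not called without premature untreated replicate 1 (2.65), 2 (2.78) or 3 (2.73), premature PHE replicate 2 (2.52), 3 (2.63) or 4 (2.81), near-term untreated replicate 1 (2.37) or 3 (2.59), or near-term PHE replicate 2 (2.65) or 3 (2.42). Adult minus near-term was not called without near-term untreated replicate 1 (-2.01) or 3 (-2.22), near-term PHE replicate 2 (-2.29), 3 (-2.05) or 4 (-2.28), adult untreated replicate 3 (-1.96) or 4 (-2.18), or adult PHE replicate 3 (-2.32) or 4 (-2.23). The cause of these differences was not tested.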

How the results depend on the processing

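The PHE rise of PTGS2 (first probe) kept its direction and its call in each of the 32 fits that left out 1 array, at 5.67 to 5.91 in premature, 5.37 to 5.62 in near-term, 4.83 to 5.32 in newborn and 3.89 to 4.83 in adult arteries. Over the other alternatives it ran from 5.03 to 6.09, 4.47 to 5.64, 4.57 to 5.32 and 3.83 to 4.32, and the 1 lost call was the adult one with the adjusted methods' t-test (4.31). The cause of the changes below was not tested.

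Adult minus premature PHE effects of PTGS2 became called with quantile normalization (-2.25) and array weights (-1.70), and adult minus near-term with quantile normalization (-1.72). Other settings made them smaller, down to -1.09 and -0.53. Leaving out 1 array gave -1.91 to -0.97 and -1.60 to -0.66, and both were called without adult PHE replicate 4 (-1.91 and -1.60). Untreated adult minus premature became called with only the arrays compared and with the methods' t-test, unadjusted and adjusted (-0.59 each), and untreated adult minus near-term with normexp background correction (-1.26). Over the alternatives other than leaving out 1 array, these untreated differences ran from -0.64 to -0.02 and from -1.26 to 0.03.

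Untreated adult minus newborn lost its call with normexp (-0.80), quantile normalization (-0.56), median scaling (-0.32) and the methods' t-test, unadjusted and adjusted (-0.93). It ran from -1.20 to -0.71 with 1 array left out, and was not called without newborn untreated replicate 3 (-0.76) or 4 (-0.71) or adult untreated replicate 1 (-0.95), 2 (-0.87), 3 (-0.91) or 4 (-0.97). With PHE, adult minus near-term lost its call with only the arrays compared (-1.69), the slide block (-1.88) and the methods' t-test, unadjusted and adjusted (-1.69), adult minus newborn with both forms of that test (-1.72) and adult minus premature with its adjusted form (-2.09).

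Normexp turned the direction of MGLL for the near-term PHE effect (-0.51), the newborn minus near-term (0.94) and adult minus near-term effects (0.91), and untreated adult minus premature (-0.056) and adult minus near-term (-1.01), and of IL1A for the near-term PHE effect (-0.19). With the replicate number as a block (pairing), no call of the first PTGS2 probe changed (premature 5.80, newborn 5.10). Between other ages, levels could not be fitted with the slide block.

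PHE changed 1787, 3559, 1086 and 368 probes from premature to adult. The counts were 1159 and 612 (premature, newborn) with normexp, 1170 and 676 with median scaling, 3024, 130, 1889 and 161 with only the arrays compared, 2982, 1928 and 868 (premature, newborn, adult) with array weights, 2975, 1928, 1959 and 655 with the unadjusted methods' t-test, and 18 (near-term) and 9 (adult) with its adjusted form. Without newborn PHE replicate 4 the newborn count was 711, and the adult count was 241 without adult PHE replicate 1 and 565 without replicate 2. Near-term regulators called numbered 25, and 14 with the stricter filter, 13 with only the arrays compared and 3 with the adjusted methods' t-test (adult 14 and 1). Names independent of matched means gave 10, 10, 9 and 6 regulators, beside the 9, 9, 8 and 6 given above, since a gene could then be read from another of its probes. Prostanoid genes called were 1 in place of 0 in premature and in newborn arteries with only the arrays compared, array weights and both forms of the methods' t-test. Near-term they were 1, and 2 with no filter or without untreated replicate 4, PHE replicate 1 or PHE replicate 2, 3 without the 2 dimmest arrays (an alternative chosen after seeing the data), and 0 with the stricter filter, only the arrays compared, the adjusted methods' t-test or independent names.

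The median of all probes shifted with PHE by -0.07, -0.38, -0.02 and 0.08 from premature to adult, by -0.05, -0.07, -0.05 and -0.04 with quantile normalization, by -0.19, -0.53, -0.03 and 0.00 with median scaling and by -0.45, -0.99, 0.29 and 0.18 with normexp. Signal over background limits the second probe, MGLL, the prostaglandin receptors and untreated IL1A and IL6, among others.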
